A study of Danio rerio with 2 samples.

Results

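The γ-crystallin array of zebrafish chromosome 9 was followed window by window in RNA of whole larvae. It comprises the 350 adjacent windows of 1 kb from 22050001 to 22400000 of chromosome 9 (build GRCz11, positions counted from 1), out of 1345132 windows in each library. The windows were chosen by position, around a stretch already known to be deeply covered in these libraries, so its depth is a description and not a finding. Both groups were wild-type larvae pooled 50 to a library. One pool received the solvent DMSO and the other valbenazine at 10 µM, a drug that blocks the transporter loading monoamines into synaptic vesicles. Age, sex and length of exposure are not given in the labels. Each group had 1 library, so no spread between replicates could be measured, and all differences are between 2 libraries without a test. The study's title asks about body growth and growth hormone, and the array was not its stated target.

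Crystallins are the soluble structural proteins packed at very high concentration in the fibre cells of the lens, where they give the tissue its transparency and refractive power. Fish carry a large γM-crystallin family, rich in methionine, whose many similar genes are arranged in tandem, and the lens of a larva expresses them strongly. Among RefSeq genes of the assembly GRCz12tu, used for names and neighbours only, chromosome 9 carries 21 genes named crygm2d1 to crygm2d21 in 1 run, interrupted by 2 genes for long non-coding RNA. The wider run from crygm7 to crygs3 holds 39 genes, of which 34 have a γ-crystallin symbol. Before the crygm2d genes come crygm7, crygm6, crygm1, crygm2c, crygmxl1, crygm2b, crygm2a and crygm2e. After them follow crygm2f, crygm5, crygm3, crygs4 and crygs3. The gene order continues with uchl3, a ubiquitin hydrolase, sgo2, a protector of cohesin at centromeres, and c9h2orf80 on one side of the run. On the other side comes dgkg, which encodes a diacylglycerol kinase. Genes could not be placed on single windows, because no annotation of GRCz11 was used. That these windows hold the crygm2d genes was taken from prior knowledge of the locus and was not checked against markers. Depth has no strand and near-identical copies can share reads, so a window's depth is not the level of a gene.

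The deposited values are read depths per window, not scaled between the libraries. Their sum was 58693226.5 in DMSO and 61750003.5 in valbenazine, and the number of reads behind them is unknown. The sources used here do not say whether a window's value is a median over its bases, or whether gaps within spliced reads were counted as covered. The depth of a flat stretch need therefore not be RNA of those windows, and a share of summed depth need not be a share of reads or of RNA. This holds for the plateaus, levels, peak excesses and shares given below. Ratios were taken after scaling both libraries to the same summed depth and adding a pseudocount of 9.03, and are given as log2 of valbenazine over DMSO. A window was compared where its mean scaled depth reached the pseudocount, which 281 of the 350 windows did. Windows below it lay in the flanks alone. The array and its flanks fell into 4 sections, described from left to right: an outer left flank of 19 windows, a raised left shoulder of 30, a deep block of 240 and a right flank of 61. The block was the longest run with a scaled depth of at least 3000, and the shoulder the part of the left flank with at least 100. The first window of the block (22099001) had a depth of 11836 in DMSO and 7098 in valbenazine, and the window just outside it 3092 and 1626. At the other end the last window of the block (22338001) had 3985 and 4480, and the next window 54 and 6.

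**Figure D1:**
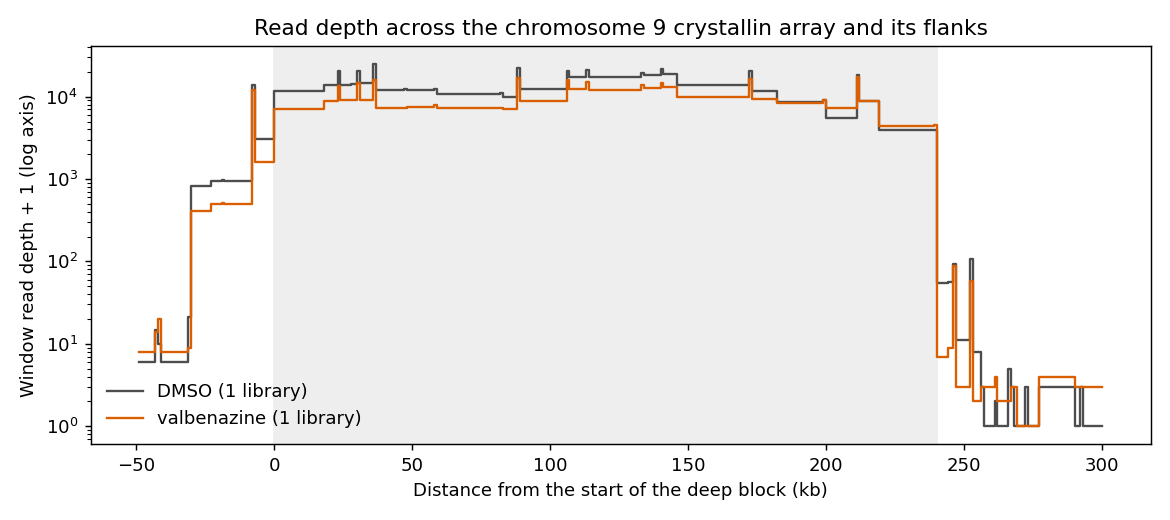
Read depth plus 1 in each 1 kb window (log axis) against distance from the start of the deep block in kb, for the DMSO library in grey and the valbenazine library in orange, with the deep block shaded. Both profiles are staircases of flat stretches with narrow peaks, and within the shoulder and block the orange line runs below the grey one up to 200 kb.

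The array carried less of the signal in the valbenazine library than in the DMSO library. From the left shoulder to the right end of the deep block this difference shrank, though not steadily. The whole region held 5.05% of the summed depth in DMSO and 3.49% in valbenazine, a log2 ratio of shares of -0.53. Of the 281 windows compared, 248 (88.3%) had a log2 ratio under 0, where 30.3% of all 480994 windows compared did. On the rest of chromosome 9 the share under 0 was 31.8% of 18186 windows. Depth matters to this reading, because deeply covered windows elsewhere also tended to lie below 0. Outside the region, 962 windows had a depth within the range of the block. Of these, 69.9% lay under 0, their log2 ratios having a median of -0.17 and quartiles of -0.34 and 0.07. In the block 208 of 240 windows (86.7%) did, with a median of -0.59, and 6.03% of the 962 windows elsewhere were at or below that median. In RNA from whole bodies, fewer lens cells and less crystallin RNA per cell cannot be told apart. A ratio below 0 is a smaller share of the summed depth, not a measured loss of RNA.

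The outer left flank was almost without signal. Median depth over its 19 windows was 5 in DMSO and 7 in valbenazine, and 16 of them lay on 2 flat stretches at exactly those values. The deepest was 20 in DMSO and 19 in valbenazine, in different windows. Only 3 were deep enough to compare, with log2 ratios from -0.81 to 0.59. The highest ratio of the whole region, 0.59, came from one of them (22057001), where the depth was 9 and 19, close to the pseudocount.

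The flat levels of the left shoulder had lower ratios than any level of the block. The shoulder rose from 20 to 823 in DMSO and from 8 to 405 in valbenazine within 1 window (22069001), a 41.1-fold and a 50.6-fold step. It then held 4 flat levels, at 823, 951, 952 and 3092 in DMSO and at 405, 497, 497 and 1626 in valbenazine. Those at 951 and 952 had almost the same depth, with a slight peak between them. The ratios of these levels were nearly the same although depth differed, with log2 values of -1.079, -0.996, -0.998 and -0.996. All 30 windows of the shoulder were under 0. Its first 7 windows were at least 2-fold lower in valbenazine, and 21 more lay within 0.01 of a log2 ratio of -1 without reaching it.

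Between the flat levels of the shoulder stood 1 tall peak, and its ratio was unlike theirs. The window from 22091001 had a depth of 13819 in DMSO and 11975 in valbenazine, which was 4.47 and 7.37 times its deeper neighbour. Its log2 ratio was -0.28, against -0.998 and -0.996 in the windows beside it. The excess over the deeper neighbour, 10727 in DMSO and 10349 in valbenazine, gave a log2 ratio of -0.12. A second, slight peak of the shoulder (22080001) had depths of 978 and 516 and a log2 ratio of -0.98, like its surroundings.

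The deep block was a staircase in both libraries. Depth ran from 3936 to 24931 in DMSO, a 6.33-fold range, and from 4445 to 17234 in valbenazine, a 3.88-fold range. Of 239 pairs of adjacent windows, 82.4% in DMSO and 81.6% in valbenazine had exactly equal depths, and 193 pairs were equal in both libraries. Over the tracks as a whole, 68.1% of windows with signal in DMSO and 68.2% in valbenazine equalled the window before them. Among the windows elsewhere within the depth range of the block these shares were 26.9% and 21.3%. The 240 windows thus held 43 distinct values in DMSO and 44 in valbenazine. The shares of windows given here count every window of a flat stretch, and those windows are not independent. Taking each run of equal values once left 47 values, of which 43 were below 0 and 4 above, and their median ratio was -0.59 (log2). Runs elsewhere were not counted in this way, so these counts have no background beside them.

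Plateaus, taken as runs of at least 3 equal windows, filled 216 of the 240 windows (90%) in each library. DMSO had 19 of them, with a median length of 10 kb, and valbenazine 21, with a median of 8 kb. Runs equal in both libraries at once also numbered 21 and covered 214 windows, so all but 2 windows of each library's plateaus lay in shared ones. The median log2 ratio of these shared plateaus was -0.61, with 19 below 0 and 2 above.

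The longest shared plateau covered 25 windows from 22245001, at a depth of 14053 in DMSO and 9834 in valbenazine (log2 ratio -0.59). A plateau of 19 windows from 22213001 was deeper in both libraries, at 17188 and 12028, with the same log2 ratio of -0.59. The next, 19 windows from 22319001 near the right end, stood at 3936 and 4445. It was the deeper one in valbenazine, with a log2 ratio of 0.10. Of the 17-window plateaus, the one at the left edge (22099001) was at 11836 and 7098, a log2 ratio of -0.81. The other (22281001) was at 8723 and 8336, a log2 ratio of -0.14. The last of the 6 longest, 16 windows from 22188001, was at 12442 and 8959 (log2 ratio -0.55). Plateaus of much the same length thus differed in ratio by their place along the array. The longest of the stretches that were flat in DMSO but not in valbenazine covered 23 windows from 22158001, all at 10861 in DMSO, while in valbenazine the same windows moved between 7262 and 7265.

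Merging adjacent windows within 1% of each other gave 19 levels in the block, and the ratio climbed along them from left to right. The first level (22099001) had a log2 ratio of -0.81 and the last (22318001) 0.10, a difference of 0.91. Across the 19 levels Spearman's rho between position and ratio was 0.87, given as a description, since the levels share both libraries and neighbouring levels may share reads. The climb was not steady, because 10 of the 18 passages from one level to the next went up in ratio and 8 went down. From 22099001 to 22157000 the ratios of 6 levels lay between -0.81 and -0.70. From 22158001 to 22271000 those of 8 levels lay between -0.65 and -0.53. The rise was concentrated in the levels that followed.

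Those last levels, from 22272001, had log2 ratios of -0.41, -0.14, 0.31, -0.05 and 0.10 in turn. Their depths in DMSO were 11829, 8723, 5541, 8820 and 3936. In valbenazine they were 9371, 8336, 7247, 8947 and 4445. DMSO thus fell by more than valbenazine over the first steps, and the profiles crossed at the level from 22299001, the 11 windows with the highest ratio in the block. Both levels above 0 were also higher in valbenazine as deposited, and stayed above 0 with scaling to the depth outside the region, at 0.29 and 0.08. They fell below 0 under median-ratio scaling, at -0.0070 and -0.22, so that their direction depends on the scaling chosen.

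Steps between levels mostly went the same way in both libraries, in 16 of 18 cases. Entering the block, depth rose by 8744 in DMSO and 5472 in valbenazine. The largest further rise, at 22206001, was 4715 and 3279. At 22245001 depth dropped by 5028 in DMSO and dropped by 3122 in valbenazine. At 22318001 it dropped by 4884 in DMSO and dropped by 4502 in valbenazine. The 2 steps with opposite signs were small in each library. Depth changed by -98 in DMSO and 271 in valbenazine at 22147001, and by 31 and -210 at 22213001.

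Cut into consecutive stretches of 80 windows, the block showed the same gradient. The first stretch had a median depth of 12016 in DMSO and 7262 in valbenazine. Its median ratio was -0.75 (log2) and 80 of 80 windows were under 0. The middle one was the deepest, at 17157 and 12028, with -0.59 and again 80 of 80. In the last the medians were 8723 and 8336, the log2 ratio -0.11, and 48 of 80 windows were under 0. The first stretch held 34.4% of the depth of the block in DMSO and 29.8% in valbenazine, the middle 42.4% and 40.9%, and the last 23.3% and 29.4%. The distribution of signal within the block was therefore shifted to the right in the valbenazine library, which no scaling between libraries can alter.

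**Figure D2:**
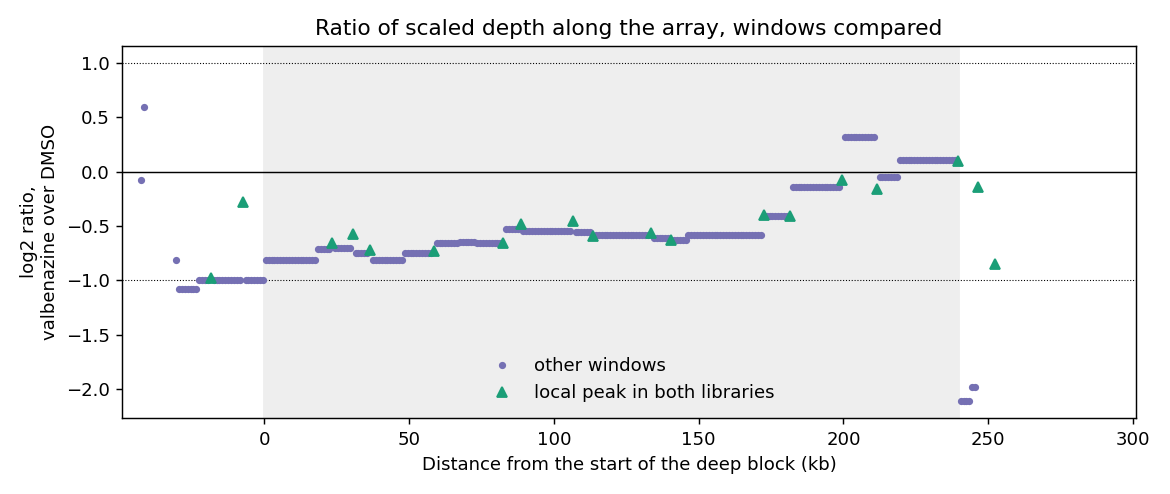
The log2 ratio of valbenazine over DMSO for the 281 windows compared, against distance from the start of the deep block in kb, with the deep block shaded and 2-fold marked by dotted lines. Triangles are windows that are local peaks in both libraries; circles are the other windows, which climb from -0.81 at the left edge of the block to 0.31 and 0.10 near its right edge.

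Local peaks, windows deeper than both neighbours, numbered 17 in the block in DMSO and 15 in valbenazine, and all 15 of the latter were at the same window in both. The 2 peaks of DMSO alone exceeded their neighbours by 122 and 3 at depths of 12236 (22146001) and 8823 (22317001). Elsewhere in the tracks 11.6% of windows within the depth range of the block were peaks in both libraries, against 6.25 per 100 windows in the block. Of the 15 shared peaks, 9 were at least 1.1 times both neighbours in both libraries, and 3 at least 1.5 times. Spacing between neighbouring ones of these 9 ran from 6 to 52 kb, with a median of 22.5 kb. The 34 γ-crystallin genes of the other assembly outnumber these peaks, and no peak was assigned to a gene.

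Of the 12 deepest peaks of the region, 11 were in the block and 1 was the tall peak of the shoulder. The deepest by the mean of both libraries (22135001) had a depth of 24931 in DMSO and 15946 in valbenazine, a log2 ratio of -0.72. It was the deepest window of the region in DMSO, but in valbenazine that place went to the peak at 22310001, with 18259 in DMSO and 17234. This latter peak had a log2 ratio of -0.16 and stood 2.07 and 1.93 times above its deeper neighbour. Of the 916 windows of the tracks with a scaled depth of at least 10000, 115 (12.6%) lay in the block. Over the tracks 273 windows in DMSO and 443 in valbenazine were deeper than the deepest of the array.

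The peaks of the left part were lower in valbenazine, as were the flat stretches beside them. At 22122001 the depths were 20339.5 and 13592, a log2 ratio of -0.65 between neighbours at -0.71 and -0.70. At 22129001 they were 20771 and 14656, a log2 ratio of -0.58 between neighbours at -0.70 and -0.75. Both peaks were thus nearer to equal in the 2 libraries than their surroundings. In the middle, the peak at 22187001 had 22243.5 and 16791 (log2 ratio -0.48) and that at 22205001 had 20746.5 and 15906 (log2 ratio -0.46). The peaks at 22212001 (21362 and 14940), 22232001 (19369 and 13756) and 22239001 (21867.5 and 14818) had log2 ratios of -0.59, -0.57 and -0.63. Farther right, 22271001 had 20616 and 16415.5 (log2 ratio -0.40). The remaining one of the 12, at 22280001 with 11849 and 9390 (log2 ratio -0.41), rose only 20 and 19 above its neighbour.

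Of the 15 shared peaks, whose median ratio was -0.57 (log2), 14 were under 0 and 1 above. The 1 above 0 was the last window of the block (22338001), at 3985 and 4480, which exceeds its neighbour by 49 in DMSO and 35 in valbenazine. Among the 9 taller peaks, 6 had a ratio above those of both neighbours and 3 below. Some margins were slight. Two-sided counting put 22212001 (-0.5888 against -0.5879 beside it) and 22239001 (-0.6344 against -0.6314) below, and 22271001 (-0.4018 against -0.4089) above. When only the excess over the deeper neighbour was taken, the median log2 ratio of the 9 peaks was -0.40, compared with -0.58 for their whole depth. Their summed excess was 59053 in DMSO and 47781.5 in valbenazine. Among these 9 peaks the excess was unevenly lower, from a log2 ratio of -0.70 at 22212001 (4174 and 2702) to -0.04 at 22205001 (3589.5 and 3668). At 22271001 it was 6559 and 6581.5, a log2 ratio of -0.07. These last excesses were slightly higher in valbenazine as deposited and slightly lower after scaling, so their direction rests on the scaling. The 6 slighter shared peaks were mixed. Their excess was higher in valbenazine at 22232001 (823 and 1019, log2 ratio 0.23) and 22298001 (458.5 and 818, log2 ratio 0.75). It was lower at 22157001, 22181001, 22280001 and 22338001, with log2 ratios of -0.27, -0.93, -0.10 and -0.46. Ratios of excess are given for scaling to summed depth alone.

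**Figure D3:**
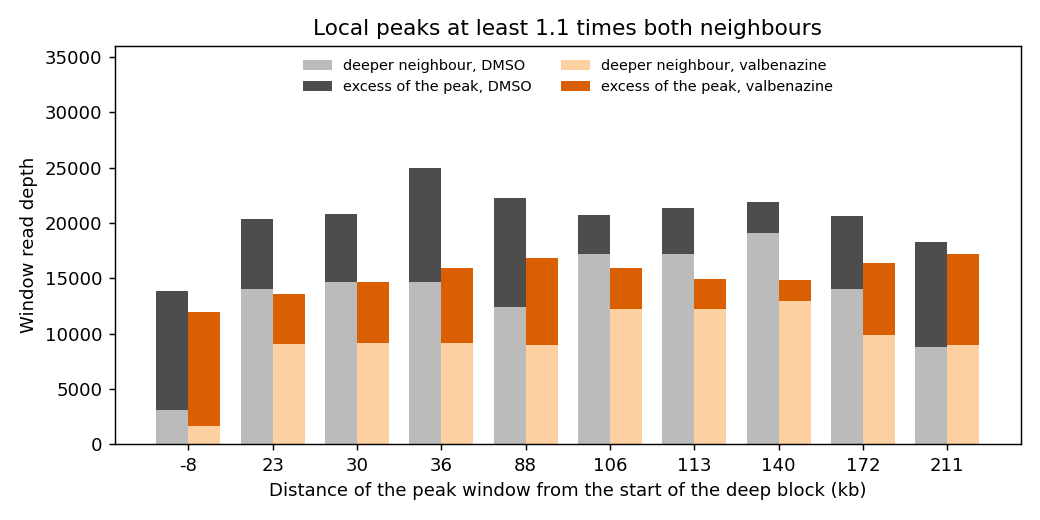
Read depth as deposited in the 10 local peaks of the shoulder and block that are at least 1.1 times both neighbours in both libraries, by distance from the start of the deep block in kb. The pale part of each bar is the depth of the deeper neighbour and the dark part the excess of the peak (grey DMSO, orange valbenazine); the excess makes up 77.6% and 86.4% of the bar at -8 kb and 51.7% and 48.1% at 211 kb, in DMSO and valbenazine.

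Beyond the block the signal ended abruptly. Between the last window of the block and the next, depth fell 73.8-fold in DMSO and 747-fold in valbenazine. The first 4 windows of the right flank (from 22339001) were at 54 in DMSO and 6 in valbenazine, a log2 ratio of -2.11, the lowest of the region. The 2 windows after them were at 56 and 8. These 6 windows were at least 2-fold lower in valbenazine, but the depths in valbenazine were under the pseudocount.

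Then came 2 narrow peaks. The window from 22345001 had 93 and 88 (log2 ratio -0.14), and that from 22351001 had 105 and 57 (log2 ratio -0.85). After the last of these peaks came 48 windows with a depth of 7 or less in both libraries, too shallow to compare. Over the whole right flank 35 of 61 windows had signal in DMSO and 53 in valbenazine. Of all windows in the tracks, 62.62% had signal in DMSO and 66.32% in valbenazine. In valbenazine 11 of the 53 were 1 flat stretch at a depth of 2 (22389001). Among the 8 windows compared the median was -2.05 (log2), and it became 0.11 when all 61 were taken.

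Differences of at least 2-fold were found in the shoulder and the right flank. Of the 281 windows compared, 13 (4.63%) were at least 2-fold lower in valbenazine, where 1.05% of all windows compared were, and all 13 lay in those sections. These 13 repeat few values: 7 windows at 823 and 405, 4 at 54 and 6, and 2 at 56 and 8. The window counts below repeat flat stretches in the same way. In the block 0 of 240 windows differed by 2-fold, while 1.25% of windows of like depth elsewhere were that much lower. No window of the region was 2-fold higher, against 7.73% of all windows compared. Among the 962 windows of like depth elsewhere only 3 were 2-fold higher, so the block, with 0, was little different from them. These counts rest on the scaling, since many windows lay close to 2-fold. Under median-ratio scaling 93 windows of the region (33.1%) were at least 2-fold lower, against 2.27% of all windows compared. In the block it was 57 windows (23.8%), against 2.6% of windows of like depth elsewhere. With scaling to the depth outside the region it was 35 windows (12.5%), against 1.12% of all windows compared.

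Set beside the other long deep stretches of the tracks, the array was by far the longest. Its length is a description only, because the region was chosen as deeply covered and most of the block was flat stretches. The 8 other blocks of at least 20 windows at a scaled depth of 3000 or more had at most 49. Their median log2 ratios ran from -0.96 to 0.28, with 5 of 8 below 0. The array, at -0.59, lay within this range, near a block of chromosome 19 (5350001 to 5381000, -0.51) and above one of chromosome 15 (88001 to 108000, -0.96). Its level ratios spanned 1.12 on the log2 scale, and those of the 5 other blocks with at least 3 levels spanned 0.03 to 1.04. The chromosome 19 block spanned 1.04 with 3 levels, where the array had 19. The median ratio thus did not set the array apart, and the range of its levels was the widest by a small margin. By single windows, some of the other blocks, though not most, ranged more widely than the array. Window ratios ran from -2.35 to -0.09 in the chromosome 15 block and from -0.81 to 0.31 in the array. Exactly equal adjacent windows made up 82.4% of pairs in DMSO in the array and 21.1% to 72.9% in the other blocks. Peaks shared by both libraries numbered 6.25 per 100 windows, within 0 to 21.4 in the others. None of these differences was tested.

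**Figure D4:**
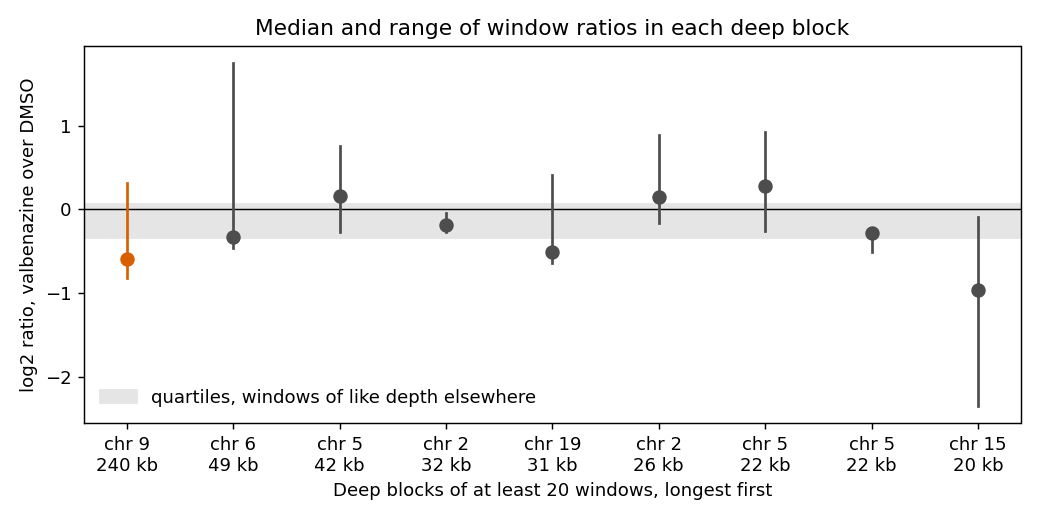
Median (point) and lowest to highest (line) log2 ratio of valbenazine over DMSO over the windows of each deep block of at least 20 windows, longest first, with the array in orange and the grey band marking the quartiles of windows of like depth elsewhere (-0.34 and 0.07). The median of the array, -0.59, lies below the band, as does that of the blocks on chromosomes 15 and 19. The band is matched to the array alone, at scaled depths of 4186.7 to 20566. The chromosome 19 block is deeper, with median depths of 32675 in DMSO and 22119 in valbenazine.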

How the data were processed

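The authors deposited 1 track per library, whose values are a read depth signal per 1 kb window, with no header, strand or gene. All values are 0 or multiples of 0.5. HISAT2 is named as aligner, per the submitters' processing notes. How the window value was computed is not given in the sources used here. The same notes name mm10, a mouse build, but the window counts of 25 of 25 chromosomes equal GRCz11 lengths, taken from general knowledge. Per the labels' protocols, RNA of 50 larvae per pool was extracted with RNAiso Plus and sequenced after SMARTER library preparation.

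From these values the scaled depths, log2 ratios, peaks, plateaus and levels were computed with Python 3.11.15, numpy 2.4.6, pandas 2.3.3 and scipy 1.17.1, and figures with matplotlib 3.10.9. The pseudocount is the median, over windows with signal, of the mean scaled depth. Finding the block, peaks, plateaus and plateau ratios was tested on simulated data. That test used median-ratio scaling, a far smaller pseudocount and a block limit of 1000, not the main settings. Levels, sections, peak excesses and TMM scaling were not part of it. The windows, sections and lists were chosen with earlier results of these data known. Named are the 12 deepest peaks, the 6 longest shared plateaus, the 4 highest and 4 lowest ratios, and windows singled out after their values were seen. Alternatives were median-ratio, TMM (trimming 30% of ratios and 5% of levels per end) and outside-region scaling, a pseudocount 4 times smaller or larger, other depth filters, and other limits for block, peak and plateau.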

Additional observations from a re-analysis of the deposited data

How the results depend on the processing

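No paired analysis was possible because each group has 1 library, and no replicate could be left out for the same reason. Median-ratio and TMM scaling shifted log2 ratios, pseudocount aside, by -0.32 and -0.33. Under them the median of the block was -0.91 and -0.92, of the compared left flank -1.31 and -1.33, of the compared right flank -2.25 and -2.26, of the shared peaks -0.89 and -0.90, and of the shared plateaus -0.94 and -0.95. All 240 windows of the block were then below 0. Both scalings lower the ratios of all windows, and the share below 0 elsewhere was not counted under them, so this count has no background. Windows at least 2-fold lower numbered 93 with median-ratio and 94 with TMM scaling. They numbered 35 with scaling outside the region, 28 with the smaller pseudocount and 7 with a filter 4 times higher. None was 2-fold higher under any of these settings. Among these settings, shares over all windows compared were counted for the lower windows under median-ratio and outside-region scaling alone. The other counts have no background beside them. The levels at 22299001 (with its windows 22307001, 22308001 and 22309001) and 22318001 turned below 0. The median-ratio values were -0.0070 and -0.22, and those of TMM -0.0202 and -0.23. The window at 22338001 turned to -0.22 and -0.24. The right flank was -2.70 with the smaller pseudocount, -1.11 with the larger and 0.11 with no filter, where most windows hold almost no signal. Runs counted once gave 43 runs below 0, a smaller set than 208 windows. The excess of the 15 shared peaks had a median of -0.27, chosen after seeing the data, as were the first 80 windows of the block (-0.75) and the last 80 (-0.11). Peaks at least 1.5 times both neighbours numbered 3 in DMSO and 5 in valbenazine, and a block limit of 10000, which leaves 94 windows, 7 in each. Beyond what an alternative's construction shows, the cause was not tested. Read numbers are unknown, and the flanks are too shallow to compare in most windows.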
